A study of Mus musculus with 8 samples.

Results

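The genes described here are 34 markers of the mesenchymal and endothelial cells that surround the epithelium of the thymus, read in libraries labelled as thymic epithelium. They are 17 fibroblast genes, 6 mural genes (pericytes and vascular smooth muscle) and 11 endothelial genes, chosen by name out of 27179 counted gene identifiers. Collagens and proteoglycans were left out of the choice, except for the pericyte marker Cspg4, which encodes a proteoglycan. All 34 were found, and 33 passed the filter of at least 1 CPM (counts scaled by the library total) in at least 2 libraries. The exception was Tcf21, a transcription factor of fibroblast progenitors, whose levels lay between 0 and 0.695 CPM.

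The study sequenced polyadenylated RNA from thymic epithelial cells of C57BL/6 mice carrying a knockout (KO) of Mcl1, a survival factor of the BCL-2 family, and from wild-type (WT) mice. There was 1 KO library of medullary cells (mTEC), with 2 WT mTEC libraries, and 1 KO library of cortical cells (cTEC), with 4 WT cTEC libraries. No treatment was given. The labels name neither the deleted part of Mcl1, the Cre line or promoter behind the deletion, the age of the mice, nor the gate by which cells were isolated.

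Thymic stroma consists of more than epithelium. Fibroblasts form the capsule and the septa and lay down fibrillin, fibulin and fibronectin matrix, mural cells wrap the vessels and carry the PDGF receptor beta, and endothelial cells line them with VE-cadherin junctions and respond to VEGF and angiopoietins. Several of the markers are shared: vimentin and S100a4 are also made by leukocytes, desmin by muscle-like (myoid) cells of the medulla, Thy1 by T cells, and matrix genes such as Sparc and Fn1 by many epithelia. A level in a bulk library therefore does not name the cell that made the RNA, and fewer cells of a type and less RNA per cell cannot be told apart.

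Library totals ran from 11516780 to 19171953 counts. Mcl1 had 75.6 CPM in KO mTEC, against 107 and 206 CPM in WT mTEC, and 8.36 CPM in KO cTEC, against 236 to 308 CPM in WT cTEC. The KO change was called in cTECs (log2 fold change -4.97 ± 0.44 SE) and not in mTECs. Epithelial markers were abundant in every library: Epcam ranged from 797 to 1158 CPM and the 7 listed epithelial genes summed to 3743 to 9695 CPM. The cortical protease gene Psmb11 had 10.3 to 25.4 CPM in the 3 mTEC libraries and 146 to 763 CPM in the 5 cTEC libraries. Aire, the medullary regulator of tissue antigens, had 439 CPM in KO mTEC, 321 and 561 CPM in WT mTEC, 0 counts in KO cTEC and 29.1 to 121 CPM in WT cTEC.

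The summed levels of the 3 lists did not follow the groups in the same way. Summed over its 17 genes, the fibroblast list had 818 CPM in KO mTEC, 434 and 408 CPM in WT mTEC, 1210 CPM in KO cTEC and 825, 700, 809 and 673 CPM in WT cTEC. The 6 mural genes summed to 567 CPM in KO mTEC, 360 and 432 CPM in WT mTEC, 299 CPM in KO cTEC and 528, 487, 464 and 417 CPM in WT cTEC. For the 11 endothelial genes the sum was 230 CPM in KO mTEC, 153 and 72.3 CPM in WT mTEC, 32.1 CPM in KO cTEC and 58.6, 61.6, 68.5 and 45.1 CPM in WT cTEC. The KO cTEC library was thus the highest of all for these 17 fibroblast genes and the lowest for these 6 mural and 11 endothelial genes, while KO mTEC stood above both WT mTEC libraries for all 3 sums. Other genes of the lineages repeated this only in part. A second list of 26 endothelial genes was also lowest in KO cTEC, at 67.2 CPM against 75.5 to 84.1 CPM in WT cTEC. It was highest in KO mTEC, at 321 CPM. Ecscr made up 26.9% of this second endothelial sum in WT cTEC. It had 2.87 CPM in KO cTEC, against 14.9 to 27.8 CPM in WT cTEC, and the lowest rank of the sum depends on it. A second list of 16 mural genes had its highest sum in KO cTEC, 1115 CPM, against 659 to 728 CPM in WT cTEC. A second list of 24 fibroblast genes had 2187 CPM in KO cTEC, inside the WT cTEC range of 2155 to 3088 CPM. Ly6a made up 52.2% of this second fibroblast sum in WT cTEC. It had 165 CPM in KO cTEC, against 1102 to 1647 CPM in WT cTEC. In KO mTEC the second mural list (397 CPM) lay above WT mTEC (382 and 337 CPM). The second fibroblast list (1415 CPM) lay between the WT mTEC libraries (1527 and 1248 CPM). A single gene also weighed heavily on each sum of the first 3 lists in WT cTEC: Sparc made up 49.5% of the fibroblast sum, Acta2 55.5% of the mural sum and Tek 44.9% of the endothelial sum. Tek had 4.05 CPM in KO cTEC, against 18.0 to 36.5 CPM in WT cTEC, and the lowest rank of the endothelial sum depends on it.

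**Figure D1:**
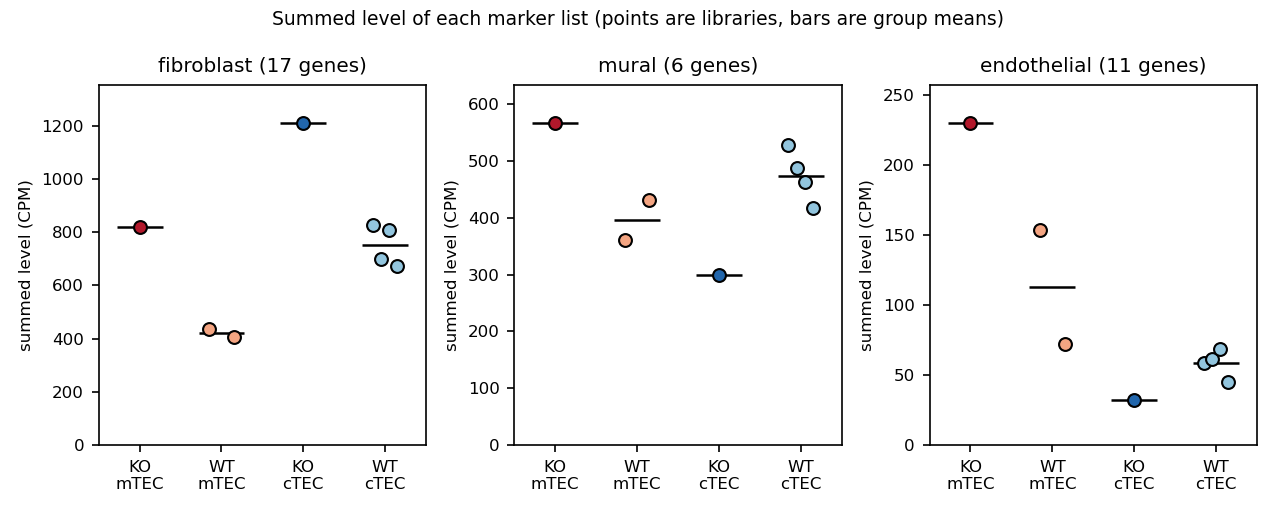
Summed level (CPM, linear axis from 0) of the 17 fibroblast, 6 mural and 11 endothelial marker genes; each point is 1 library and each bar the group mean. KO cTEC is highest for the fibroblast list (1210 CPM) and lowest for the mural (299 CPM) and endothelial (32.1 CPM) lists. The endothelial rank depends on Tek, which made up 44.9% of that sum in WT cTEC.

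Of the fibroblast sum Sparc was the largest member in KO mTEC, KO cTEC and WT cTEC, and Vim in WT mTEC (27.6%). Sparc, a matricellular collagen-binding protein, had 287 CPM in KO mTEC, 136 and 75.5 CPM in WT mTEC, 589 CPM in KO cTEC and 411, 331, 408 and 338 CPM in WT cTEC. Fibronectin (Fn1) had 72.4 CPM in KO mTEC, 42.8 and 41.9 CPM in WT mTEC, 57.3 CPM in KO cTEC and 151, 173, 169 and 141 CPM in WT cTEC. Both were lower in every WT mTEC library than in any WT cTEC library, but KO cTEC lay above all WT cTEC libraries for Sparc and below all of them for Fn1. The microfibril gene Fbn1 was not called in any comparison, with 31.3 CPM in KO mTEC, 29.2 and 35.6 CPM in WT mTEC, 36.2 CPM in KO cTEC and 35.8, 54.7, 53.2 and 35.3 CPM in WT cTEC. Periostin (Postn) was uneven among the WT cTEC libraries themselves, at 53.2, 11.9, 26.2 and 4.32 CPM, beside 37.5 CPM in KO mTEC, 18.4 and 10.02 CPM in WT mTEC and 24.7 CPM in KO cTEC.

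The fibulin genes Fbln1 and Fbln2 stood out in KO cTEC. Fbln1, which binds fibronectin and basement membrane, had 42.4 CPM in KO mTEC, 12.3 and 16.7 CPM in WT mTEC, 183 CPM in KO cTEC and 39.8, 34.4, 44.7 and 39.9 CPM in WT cTEC. Fbln2, a fibulin of elastic fibres and basement membranes, had 27.6 CPM in KO mTEC, 10.5 and 6.16 CPM in WT mTEC, 249 CPM in KO cTEC and 13.1, 9.17, 8.62 and 6.61 CPM in WT cTEC. For these fibulins KO cTEC was far above every other library. Mfap5, a glycoprotein of microfibrils, had 26.7 CPM in KO mTEC, 10.3 and 10.6 CPM in WT mTEC, 14.2 CPM in KO cTEC and only 0.518, 0.376, 1.09 and 0.765 CPM in WT cTEC, so that WT cTEC was the low group. Dermatopontin (Dpt), a matrix protein that promotes collagen fibre assembly, had 18.8 CPM in KO mTEC, 1.83 and 0.375 CPM in WT mTEC, 8.68 CPM in KO cTEC and 4.52, 5.94, 9.22 and 10.9 CPM in WT cTEC. Here the WT mTEC libraries were the lowest and KO mTEC the highest.

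Markers of particular fibroblast types were scarcer. Pdgfra, the PDGF receptor alpha of fibroblasts, had 12.9 CPM in KO mTEC, 1.36 and 0.750 CPM in WT mTEC, 7.44 CPM in KO cTEC and 4.07, 0.977, 3.44 and 2.35 CPM in WT cTEC. Pi16, a peptidase inhibitor of adventitial fibroblasts, had 4.78 CPM in KO mTEC, 0.991 and 2.62 CPM in WT mTEC, 11.5 CPM in KO cTEC and 0.592, 0.0752, 0.654 and 0.164 CPM in WT cTEC. Each KO library lay above the WT libraries of its population for both genes. Dpp4, a peptidase on capsular fibroblasts, had 13.6 CPM in KO mTEC, 10.8 and 13.3 CPM in WT mTEC, 6.46 CPM in KO cTEC and 5.85, 6.24, 6.49 and 2.68 CPM in WT cTEC, with KO cTEC inside the WT cTEC range. The transcription factors of mesenchyme, Twist1 and Prrx1, ranged over all 8 libraries from 0.536 to 2.02 CPM and from 2.37 to 8.69 CPM. Thy1, an anchored glycoprotein of fibroblasts and T cells, ranged from 3.18 to 4.12 CPM over the mTEC libraries, and had 0.326 CPM in KO cTEC, against 1.35 to 2.62 CPM in WT cTEC.

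The remaining fibroblast genes had their minimum in KO cTEC. Vimentin (Vim), the intermediate filament of mesenchyme and leukocytes, had 171 CPM in KO mTEC, 100 and 132 CPM in WT mTEC, 16.7 CPM in KO cTEC and 91.4, 57.2, 63.1 and 69.3 CPM in WT cTEC. S100a4, a calcium-binding protein of motile cells, had 58.3 CPM in KO mTEC, 51.7 and 52.1 CPM in WT mTEC, 0.979 CPM in KO cTEC and 9.55, 5.64, 4.31 and 8.47 CPM in WT cTEC. In both cases the WT mTEC libraries were above all WT cTEC libraries and KO cTEC was below all of them.

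The mural genes divided into an Acta2 pattern and an Rgs5 pattern. Acta2, the smooth muscle actin, had 259 CPM in KO mTEC, 139 and 166 CPM in WT mTEC, 233 CPM in KO cTEC and 309, 248, 267 and 228 CPM in WT cTEC. Rgs5, a regulator of G protein signalling enriched in pericytes, had 105 CPM in KO mTEC, 98.7 and 95.8 CPM in WT mTEC, 1.18 CPM in KO cTEC and 40.7, 29.2, 38.1 and 49.2 CPM in WT cTEC. KO cTEC was within the WT cTEC range for Acta2 and far below it for Rgs5. The smooth muscle myosin heavy chain Myh11 had 125 CPM in KO mTEC, 75.2 and 104 CPM in WT mTEC, 46.9 CPM in KO cTEC and 128, 171, 114 and 111 CPM in WT cTEC. Desmin (Des), a muscle and pericyte filament, had 56.9 CPM in KO mTEC, 32.3 and 40.2 CPM in WT mTEC, 5.42 CPM in KO cTEC and 37.5, 18.7, 34.03 and 20.4 CPM in WT cTEC. Both fell below the WT cTEC range in KO cTEC. Acta2 reads can be shared with the near-identical actins of other muscles, so its counts are uncertain to that extent.

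The receptors that define pericytes were low. Pdgfrb, the PDGF receptor beta through which endothelial PDGF-B recruits pericytes, had 18.3 CPM in KO mTEC, 12.0 and 18.7 CPM in WT mTEC, 7.25 CPM in KO cTEC and 6.44, 8.95, 6.43 and 2.19 CPM in WT cTEC. Cspg4, the NG2 surface proteoglycan of pericytes, had 3.56 CPM in KO mTEC, 3.49 and 7.34 CPM in WT mTEC, 5.03 CPM in KO cTEC and 6.88, 11.3, 4.04 and 5.46 CPM in WT cTEC. For both genes each KO library lay inside the range of its WT group.

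Per kilobase of the gene length given with the counts, which allows levels of different genes to be set side by side, Sparc and Acta2 led in cTECs. In KO cTEC Sparc had 256 and Acta2 131 CPM per kilobase, followed by Fbln2 at 55.6 and Fbln1 at 54.5. In WT cTEC the mean was 162 CPM per kilobase for Sparc and 148 for Acta2, then 38.3 for Vim and 21.7 for Rgs5. In KO mTEC the order was Acta2 (145), Sparc (125), S100a4 (117) and Vim (93.2 CPM per kilobase). In WT mTEC it was S100a4 (104), Acta2 (85.5), Vim (63.2) and Rgs5 (53.7 CPM per kilobase). The order is a description and was not tested. The highest endothelial gene per kilobase was Esam in KO mTEC, at 21.4 CPM per kilobase, and Plvap in WT mTEC, at a mean of 9.87.

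**Figure D2:**
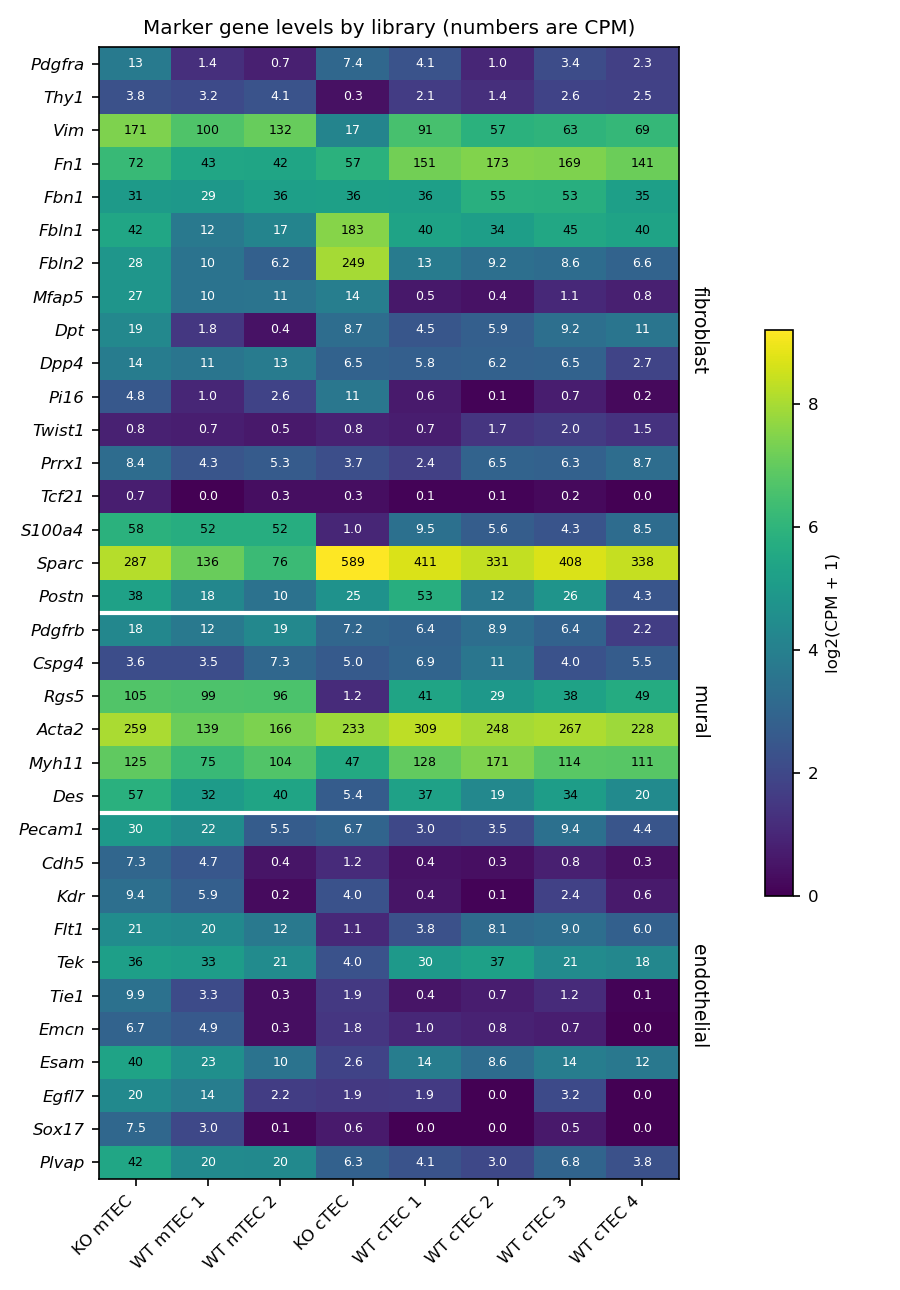
Level of all 34 marker genes in the 8 libraries, coloured by log2(CPM + 1), with the CPM printed in each cell; rows are grouped into fibroblast, mural and endothelial genes. Fbln1 and Fbln2 are highest in KO cTEC (183 and 249 CPM), S100a4 and Rgs5 are at their lowest there (0.979 and 1.18 CPM), and 10 of the 11 endothelial genes are highest in KO mTEC.

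The endothelial genes did not behave as 1 block, because the WT mTEC libraries differed. All 11 were higher in WT mTEC 1 than in WT mTEC 2. For 7 of them the ratio of CPM was over 3, between 3.96 and 27.8, and for the other 4 it was 1.01 to 2.20; this division was made after the values were seen. Over the 18154 tested genes with a ratio, the median was 0.924 and 0.611% exceeded 3. A single fibroblast gene did so, Dpt at 4.87, and no mural gene.

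The 7 genes included the VEGF receptor and the junctional cadherin by which endothelium is usually recognised. Kdr, the main VEGF receptor of endothelium, had 9.38 CPM in KO mTEC, 5.89 and 0.214 CPM in WT mTEC, 4.05 CPM in KO cTEC and 0.444, 0.0752, 2.40 and 0.601 CPM in WT cTEC. In counts, the WT mTEC libraries held 113 and 4 reads of Kdr. Cdh5, the VE-cadherin of endothelial junctions, had 7.29 CPM in KO mTEC, 4.69 and 0.428 CPM in WT mTEC, 1.18 CPM in KO cTEC and 0.301 to 0.763 CPM in WT cTEC. Tie1, an orphan receptor that modulates angiopoietin signalling, had 9.90 CPM in KO mTEC, 3.34 and 0.268 CPM in WT mTEC, 1.89 CPM in KO cTEC and 0.0546 to 1.2 CPM in WT cTEC. The same order, KO mTEC first and WT mTEC 1 next, held for the other four.

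Pecam1, an adhesion molecule of endothelium and leukocytes, had 30.4 CPM in KO mTEC, 21.6 and 5.46 CPM in WT mTEC, 6.73 CPM in KO cTEC and 3.03, 3.46, 9.43 and 4.37 CPM in WT cTEC. Egfl7, a secreted factor of endothelium, had 19.6 CPM in KO mTEC, 13.8 and 2.20 CPM in WT mTEC, 1.89 CPM in KO cTEC and 1.92, 0, 3.16 and 0 CPM in WT cTEC. The sialomucin gene Emcn had 6.69 CPM in KO mTEC, 4.90 and 0.268 CPM in WT mTEC, 1.76 CPM in KO cTEC and 0 to 1.04 CPM in WT cTEC. Sox17, a transcription factor of arterial endothelium, had 7.47 CPM in KO mTEC, 2.97 and 0.107 CPM in WT mTEC, 0.588 CPM in KO cTEC and no count in 3 of the 4 WT cTEC libraries. A count of 0 there allows up to 3 counts, which is 0.164 to 0.226 CPM depending on the library. Summed, the 7 genes had 90.7 CPM in KO mTEC, 57.3 and 8.94 CPM in WT mTEC, 18.1 CPM in KO cTEC and 5.34 to 18.2 CPM in WT cTEC, so that WT mTEC 2 lay inside the WT cTEC range and WT mTEC 1 above it. The gap between the WT mTEC sums follows from how the 7 were chosen.

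The other 4 endothelial genes differed less between WT mTEC libraries 1 and 2, and all but Plvap fell in KO cTEC. Tek, the Tie2 receptor of angiopoietins, had 35.9 CPM in KO mTEC, 33.1 and 20.9 CPM in WT mTEC, 4.05 CPM in KO cTEC and 29.6, 36.5, 20.7 and 18.0 CPM in WT cTEC. Flt1, the VEGF receptor that also serves as a decoy, had 21.2 CPM in KO mTEC, 19.8 and 12.2 CPM in WT mTEC, 1.11 CPM in KO cTEC and 3.85, 8.12, 8.997 and 6.01 CPM in WT cTEC. Esam, an adhesion molecule of endothelial tight junctions, had 39.7 CPM in KO mTEC, 23.0 and 10.4 CPM in WT mTEC, 2.61 CPM in KO cTEC and 13.8, 8.65, 13.9 and 11.9 CPM in WT cTEC. All 3 were below every WT library in KO cTEC. Plvap, which forms the diaphragms of fenestrated endothelium, had 42.1 CPM in KO mTEC, 20.0 and 19.8 CPM in WT mTEC, 6.27 CPM in KO cTEC and 4.07, 3.01, 6.76 and 3.82 CPM in WT cTEC. Its annotated span shares 1872 bases with that of Gtpbp3, whose level reached 16.9 CPM, and without strand information reads of the shared stretch cannot be assigned.

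**Figure D3:**
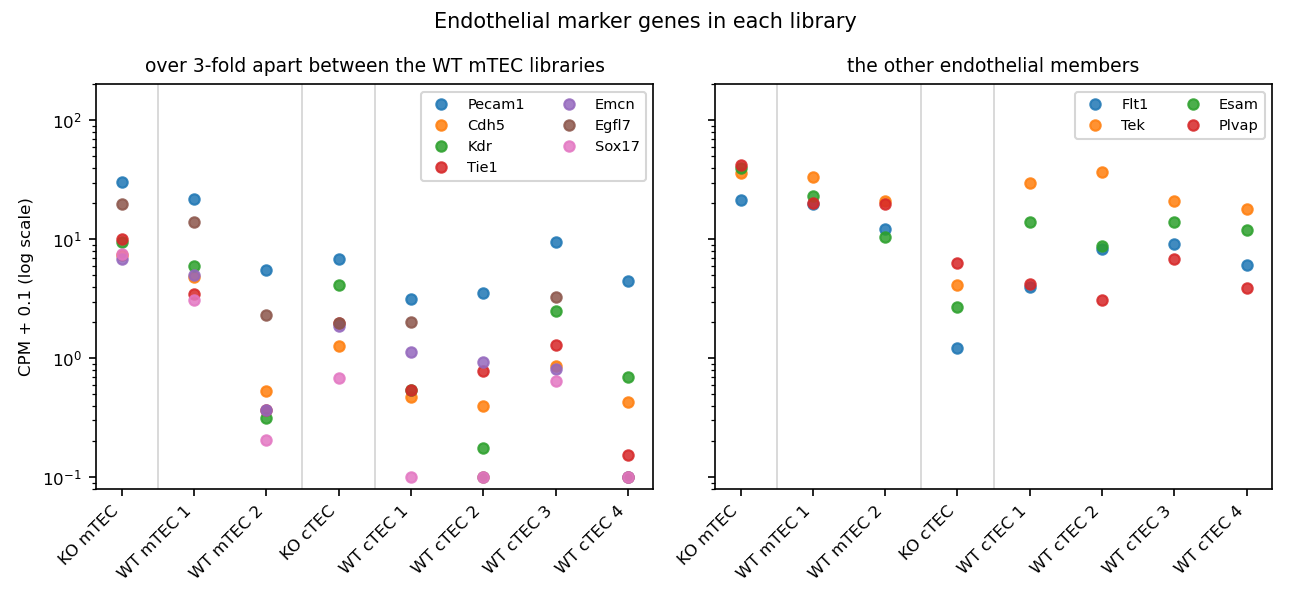
Level of the 11 endothelial marker genes in each library, as CPM with 0.1 added on a log axis; the left panel holds the 7 genes whose ratio between the WT mTEC libraries was over 3 and the right panel the other 4. In the left panel WT mTEC 2 sits near WT cTEC for most genes (Kdr 0.214 CPM, against 5.89 CPM in WT mTEC 1), and in the right panel Tek, Flt1 and Esam are lowest in KO cTEC.

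The sequence before the start of Kdr and Tie1, which differed between the WT mTEC libraries, and of Tek, which differed less, is shown with that of Acta2, the most abundant mural gene. These are the 250 bases before an annotated start in GRCm38.p6, printed in the sense of the gene. They lie on the minus strand at chr5:75978456-75978705 for Kdr, chr4:118489850-118490099 for Tie1 and chr19:34255374-34255623 for Acta2, and on the plus strand at chr4:94739039-94739288 for Tek. By the RefSeq gene spans, only the Tie1 window lies wholly before its gene. The Kdr window lies inside the gene span, and the Acta2 and Tek windows overlap theirs in part. Positions of matches are relative to the annotated start, which for Kdr, Acta2 and Tek is not the outer end of the span. Capitals mark matches, on either strand, to CCGGAA or AGGAAG, words that contain the core letters bound by ETS factors, in the endothelial genes, and to the CArG-like box of serum response factor in Acta2. The box was searched as CC, then 6 bases of which at least 5 are A or T, then GG.
Kdr: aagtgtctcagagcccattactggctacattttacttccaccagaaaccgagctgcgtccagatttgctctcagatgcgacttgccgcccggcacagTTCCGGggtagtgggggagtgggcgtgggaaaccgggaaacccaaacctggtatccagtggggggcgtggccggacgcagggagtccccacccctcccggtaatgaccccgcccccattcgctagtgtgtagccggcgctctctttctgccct
Tie1: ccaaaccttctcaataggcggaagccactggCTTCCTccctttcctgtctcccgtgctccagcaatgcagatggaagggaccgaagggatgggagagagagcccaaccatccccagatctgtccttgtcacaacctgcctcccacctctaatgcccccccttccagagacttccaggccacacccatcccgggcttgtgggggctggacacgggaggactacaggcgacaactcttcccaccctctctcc
Tek: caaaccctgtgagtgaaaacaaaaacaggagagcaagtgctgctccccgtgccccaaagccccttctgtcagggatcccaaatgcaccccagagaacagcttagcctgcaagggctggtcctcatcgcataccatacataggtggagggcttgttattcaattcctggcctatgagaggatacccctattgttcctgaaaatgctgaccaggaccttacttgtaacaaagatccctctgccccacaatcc
Acta2: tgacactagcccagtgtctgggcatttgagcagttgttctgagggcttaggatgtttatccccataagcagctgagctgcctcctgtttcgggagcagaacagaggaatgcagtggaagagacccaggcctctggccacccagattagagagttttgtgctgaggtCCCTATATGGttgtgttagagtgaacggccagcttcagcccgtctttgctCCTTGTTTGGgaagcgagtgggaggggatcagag

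The match in Kdr began 153 bases and that in Tie1 219 bases before the start, both as the reverse complement, and those in Acta2 began 84 and 34 bases before it. The Tek window held neither word, which says only that these letters are not in it. A promoter sequence was at hand for 24 of the 34 genes, 6 of them endothelial and 4 mural. AGGAAG occurred in 4 of the 6 endothelial windows (Egfl7, Emcn, Flt1 and Tie1) and in 29.5% of 32851 windows of the same length over all genes, and CCGGAA occurred in 1 of 6 (Kdr) and in 12.0% of all. A CArG-like box was present in 1 of 4 mural windows (Acta2), in 2 of 6 endothelial and 1 of 14 fibroblast windows, and in 8.59% of all.

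The comparison of WT mTECs with WT cTECs asked how the marker genes differ between the populations without the knockout. Of the 33 genes tested 6 were higher and 5 lower in mTECs by edgeR's quasi-likelihood test at a Benjamini-Hochberg adjusted p under 0.05, next to 27% of all 18163 genes tested, of which 13.2% were higher and 13.9% lower. The called share of the members was 33.3%. Both counts depend on single libraries: without WT mTEC 2 the calls were 7 members and 603 of 17627 genes, and without WT mTEC 1 they were 8 members and 1162 of 17875 genes. By CPM, both WT mTEC libraries lay above all 4 WT cTEC libraries for 10 members and below them for 6, where the background was 27.9% and 26.7% of genes.

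Among the fibroblast genes Mfap5, S100a4 and Vim were higher in mTECs, and Fn1, Sparc, Fbln1 and Dpt were lower. Mfap5 was higher by 3.93 ± 0.43 (log2 fold change ± SE, edgeR adjusted p = 0.00136), with means of 10.5 ± 0.196 CPM in mTECs and 0.687 ± 0.313 CPM in cTECs (SD, n = 2 and n = 4). S100a4 was higher by 2.94 ± 0.30 (edgeR adjusted p = 0.00121) and Vim by 0.77 ± 0.20 (adjusted p = 0.0257). Fn1 fell by 1.85 on the log2 scale (SE 0.17, edgeR adjusted p = 0.000933), Sparc by 1.75 (SE 0.27, adjusted p = 0.00442), Fbln1 by 1.41 (SE 0.19, adjusted p = 0.00278) and Dpt by 2.72 (SE 0.72, adjusted p = 0.0262). Fbln2 did not differ beyond the spread (-0.10 ± 0.31), and Dpp4, at 1.24 ± 0.40, narrowly missed the threshold (adjusted p = 0.0505). The median over the 16 tested fibroblast genes was -0.35, beside 0.06 over all genes.

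Of the mural genes 2 of 6 (33.3%) and of the endothelial genes 2 of 11 (18.2%) were called, next to 27% of all genes tested. Rgs5 was higher in mTECs by 1.35 ± 0.21 (edgeR adjusted p = 0.00421), and Acta2 was lower by -0.74 ± 0.16 (adjusted p = 0.0145). Pdgfrb, at 1.40 ± 0.48, was not called (adjusted p = 0.0612), and the median of the 6 mural genes was 0.06. Of the 11 endothelial genes Plvap (2.21 ± 0.34, edgeR adjusted p = 0.00403) and Flt1 (1.30 ± 0.40, adjusted p = 0.0457) were higher. The other 9 had positive fold changes of 0.11 to 3.42 and adjusted p-values of 0.0694 to 0.83, and the list's median was 1.84. Without WT mTEC 1 the direction turned for 4 of these uncalled genes, to -0.045 for Cdh5, -2.02 for Kdr, -1.12 for Tie1 and -1.21 for Emcn.

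Some of these calls were lost when a single library was left out. Leaving out a WT mTEC library leaves 1 in that group, so a lost call need not mean a smaller change. The change was larger for Vim without WT mTEC 1 (0.92), and for Acta2 (-0.82) and Flt1 (1.65) without WT mTEC 2. It was smaller for Vim (0.62) and Dpt (-1.97) without WT mTEC 2, and for Acta2 (-0.66) and Flt1 (0.85) without WT mTEC 1. Without WT mTEC 2, Vim, Dpt, Acta2 and Flt1 lost their calls (adjusted p = 0.217, 0.151, 0.0985 and 0.108). Without WT mTEC 1, Vim, Acta2 and Flt1 lost theirs (adjusted p = 0.0805, 0.131 and 0.355). The calls of Vim and Flt1 were also lost without WT cTEC 2 (adjusted p = 0.0548 and 0.0727) or WT cTEC 3 (0.0695 and 0.0571), that of Dpt without WT cTEC 3 (0.0588) and that of Flt1 without WT cTEC 4 (0.0788). Some markers of other cell types also differed. The sum of 9 myeloid and B cell markers was 789 and 1109 CPM in WT mTEC and 200 to 285 CPM in WT cTEC. Lyz2 alone made up 90.2% of this sum in WT mTEC and 72.5% in WT cTEC. Next to 13.2% of all genes, 3 of 8 tested markers were higher, among them Lyz2. Their part in the S100a4 and Vim results was not tested.

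In KO cTECs Fbln1, Fbln2, Mfap5 and Pi16 rose, and Vim, Fn1, S100a4, Rgs5, Myh11, Des, Tek, Flt1 and Esam fell. Of 33 members 4 were higher and 9 lower than in WT cTECs, next to 17.5% of all genes tested, of which 5.1% were higher and 12.4% lower. The KO group is 1 library, so the test borrows its spread from the WT libraries and takes the KO one to vary as they do. KO cTEC lay above all 4 WT cTEC libraries for 12 members and below them for 10, where the background was 29.1% and 33% of genes.

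All 4 increases were of genes on the fibroblast list. They came beside higher sums of epithelial markers. The 7 cortical genes summed to 5458 CPM in KO cTEC and 2137 to 4118 CPM in WT cTEC, with Ackr4, Dll4 and Psmb11 called higher. The 7 epithelial genes summed to 9695 CPM in KO cTEC and 5738 to 7107 CPM in WT cTEC, with Krt8, Krt18 and Foxn1 called higher and Cldn4 lower. Only 4 of these 7 had a positive fold change, and Epcam, at 797 CPM, lay below the WT cTEC range of 811 to 946 CPM. KO cTEC also had the fewest genes with a count, 17800, against 18704 to 20405 in WT cTEC. The part of these differences in the increases was not tested. Pi16 rose by 4.91 ± 0.91 (edgeR adjusted p = 0.00803), Fbln2 by 4.74 ± 0.33 (adjusted p = 0.000133), Mfap5 by 4.32 ± 0.48 (adjusted p = 0.000798) and Fbln1 by 2.20 ± 0.20 (adjusted p = 0.00035), on the log2 scale. The matrix gene Sparc, at 0.66 ± 0.31, and the receptor gene Pdgfra, at 1.45 ± 0.73, were not called (adjusted p = 0.184 and 0.209). In the same list S100a4 fell by 2.82 (SE 0.55, edgeR adjusted p = 0.0103), Vim by 2.07 (SE 0.31, adjusted p = 0.00332) and Fn1 by 1.47 (SE 0.22, adjusted p = 0.00304). The fibroblast median was 0.12, beside -0.14 over all genes, and hides changes in both directions.

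Of the 6 mural genes 3 fell (50%), next to 12.4% of all genes tested. Rgs5 fell by 5.06 (SE 0.43, edgeR adjusted p = 0.000247), Des by 2.35 (SE 0.48, adjusted p = 0.0124) and Myh11 by 1.48 (SE 0.31, adjusted p = 0.0129). Acta2 (-0.17 ± 0.21), Cspg4 (-0.46 ± 0.69) and Pdgfrb (0.28 ± 0.64) were not called. The list's median was -0.97.

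Of the 11 endothelial genes 3 fell (27.3%), next to 12.4% of all genes tested. All 3 were among the 4 that differed less between the WT mTEC libraries. The gap between those libraries also enters the spread used by the test. The SE was 0.45 to 0.69 for these 4 genes and 0.82 to 2.04 for the other 7. The division thus bears on where calls could fall, and no conclusion is drawn from it. Tek fell by 2.69 (SE 0.54, edgeR adjusted p = 0.011), Flt1 by 2.60 (SE 0.69, adjusted p = 0.0339) and Esam by 2.20 (SE 0.58, adjusted p = 0.034). The other 8 had fold changes of 0.39 to 2.16, none of them called, with KO cTEC above all WT cTEC libraries for Cdh5, Kdr, Tie1, Emcn and Sox17. Kdr for example was at 2.16 ± 1.50 (adjusted p = 0.356), on 62 counts in KO cTEC. The median of 0.56 was thus positive although every call was a decrease.

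The decreases in KO cTEC came beside lower markers of other cells. The 9 myeloid and B cell markers summed to 20.9 CPM in KO cTEC and 200 to 285 CPM in WT cTEC, 5 of 8 tested were lower, and Adgre1 and Ms4a1 had 0 counts in KO cTEC. The 13 skeletal muscle genes, which mark myoid cells of the thymus and share desmin with pericytes, summed to 16.8 CPM in KO cTEC and 72.2 to 120 CPM in WT cTEC, 3 of 12 tested were lower, and Myog, Myf6, Chrng, Tnnt3 and Tnnc2 had 0 counts in KO cTEC. Of these, Chrng also had 0 counts in 2 WT cTEC libraries and Myf6 in 1, and Myod1 had 0 counts in all 5 cTEC libraries. Over all genes tested 12.4% were lower, and of the 7 medullary epithelial genes 6 were. Their part in the fall of S100a4, Vim, Rgs5 and Des was not tested. Without WT cTEC 3 the calls of Flt1 and Esam were lost (edgeR adjusted p = 0.0586 and 0.0637), and that of Flt1 also without WT cTEC 2 (adjusted p = 0.0633), WT mTEC 1 (0.0581) or WT mTEC 2 (0.0509), so these 2 are near the threshold. With limma-voom 8 members were called, and Flt1, Esam, S100a4, Tek and Des were not (adjusted p = 0.216, 0.157, 0.146, 0.0694 and 0.0631).

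**Figure D4:**
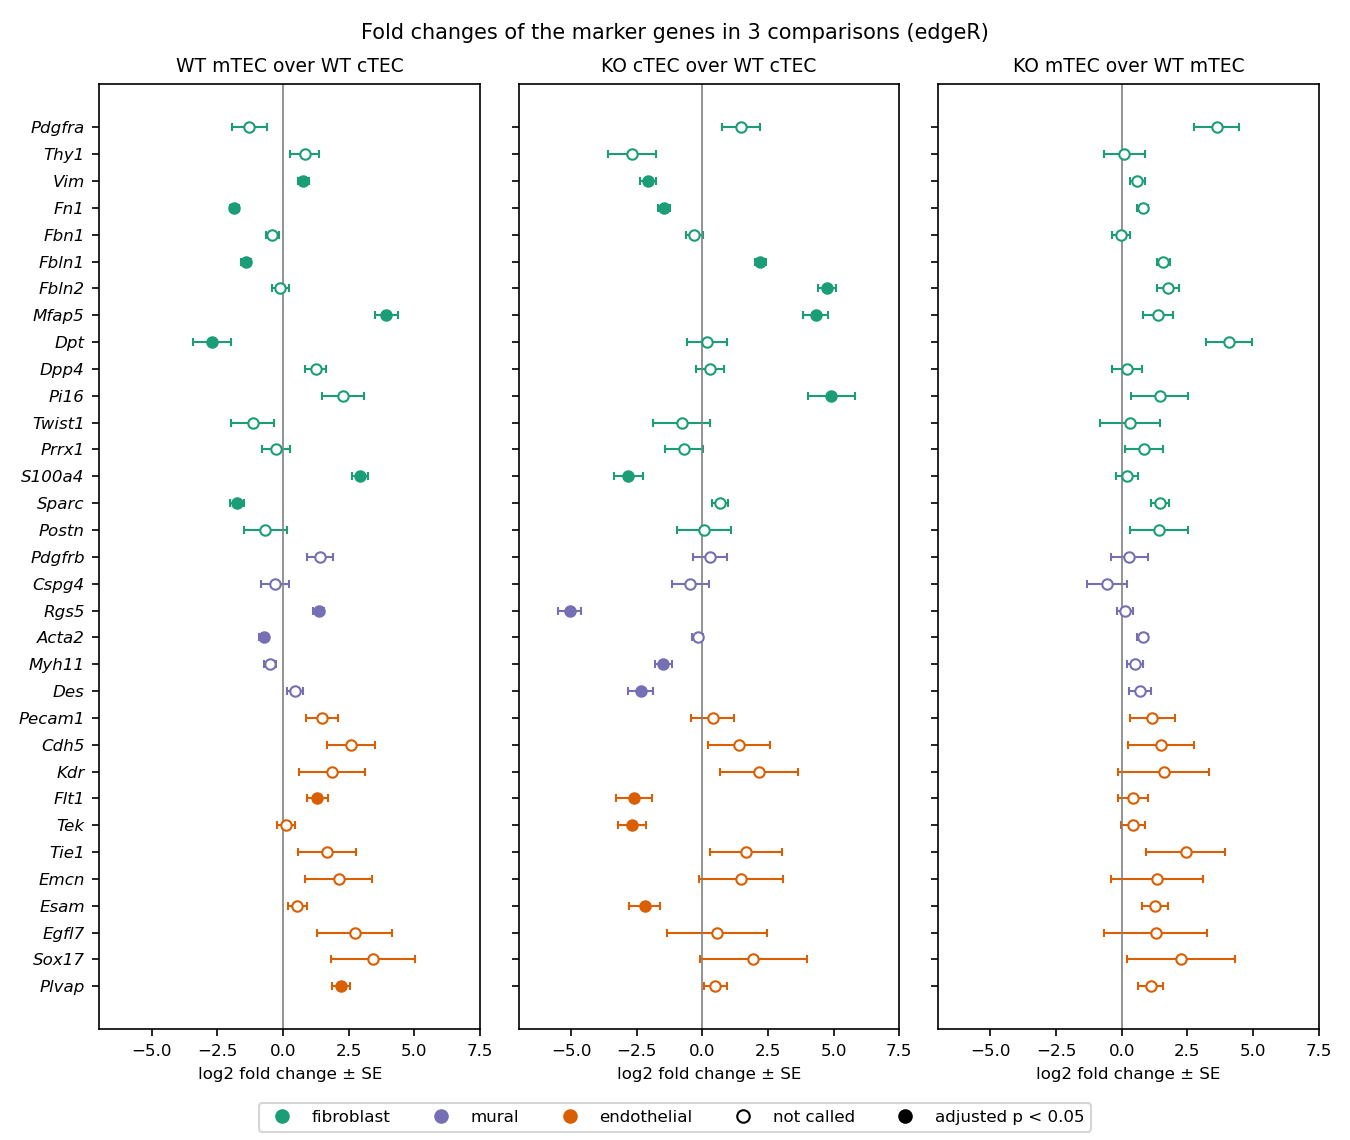
Log2 fold changes (points, with bars of 1 SE) of the 33 tested marker genes in WT mTEC over WT cTEC, KO cTEC over WT cTEC and KO mTEC over WT mTEC; filled points passed an adjusted p under 0.05 in edgeR. Rgs5 (-5.06) and Fbln2 (4.74) mark the extremes in KO cTEC together with Pi16 (4.91), and no point is filled in KO mTEC over WT mTEC.

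In KO mTECs nearly all the markers read higher than in WT mTECs, but none passed the test. edgeR called 0 of 33 members and 0% of all 18163 genes, with a smallest adjusted p of 0.0961 over all genes. At an unadjusted p under 0.05 there were 1502 of 18163 genes, among them 10 of 33 members (7 fibroblast, 1 mural, 2 endothelial). DESeq2 called 139 genes and limma-voom 0. By CPM the KO mTEC library exceeded both WT mTEC libraries for 30 of 34 members, 15 of 17 fibroblast, 4 of 6 mural and 11 of 11 endothelial, where the background was 35.9% of genes. It lay below both for 0 members, where the background was 43.7%.

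The sizes were largest for Dpt, at 4.08 ± 0.87 (edgeR adjusted p = 0.297), and Pdgfra, at 3.62 ± 0.86 (adjusted p = 0.362). Fbln2 stood at 1.75 ± 0.42 (adjusted p = 0.366), Fbln1 at 1.58 ± 0.25 (adjusted p = 0.175) and Sparc at 1.46 ± 0.34 (adjusted p = 0.36). These 5 were the members that DESeq2 called, with adjusted p-values of 0.000234 for Fbln1, 0.00419 for Dpt, 0.00872 for Sparc, 0.0389 for Pdgfra and 0.0391 for Fbln2. Rgs5 (0.13 ± 0.30), S100a4 (0.20 ± 0.43) and Fbn1 (-0.01 ± 0.34) were near 0. The medians were 1.11 for fibroblast, 0.40 for mural and 1.29 for endothelial genes, beside -0.03 over all genes. The sums of leukocyte and muscle markers did not all move alike. Myeloid and B cell markers summed to 681 CPM in KO mTEC, against 789 and 1109 CPM in WT mTEC. Lyz2 made up 85.1% of that sum in KO mTEC and 90.2% in WT mTEC. Skeletal muscle genes summed to 350 CPM, against 248 and 272 CPM, and thymocyte genes to 82.1 CPM, against 57.1 and 65.1 CPM. Fold changes were positive for 10 of 12 tested muscle genes, 10 of 12 thymocyte genes and 4 of 8 myeloid and B cell genes. Myod1 and Rag2 of these lists had 0 counts in KO mTEC, and the part of such cells in the result was not tested.

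The difference of the KO effects, mTEC minus cTEC, compared the KO-over-WT change of each gene between the populations. It was called for 9 of 33 members, 8 positive and 1 negative, next to 6.81% of all genes, of which 6.16% were positive and 0.644% negative. Rgs5 differed most, by 5.19 ± 0.50 (edgeR adjusted p = 0.000983), followed by Esam at 3.46 ± 0.76 (adjusted p = 0.0327), Tek at 3.12 ± 0.68 (adjusted p = 0.0312), Des at 3.03 ± 0.62 (adjusted p = 0.0241) and S100a4 at 3.02 ± 0.68 (adjusted p = 0.0364). Vim differed by 2.66 ± 0.41 (adjusted p = 0.00684), Fn1 by 2.27 ± 0.30 (adjusted p = 0.0034) and Myh11 by 2.00 ± 0.42 (adjusted p = 0.0254). Fbln2 was the negative one, at -2.99 ± 0.59 (adjusted p = 0.0206): its KO change was 1.75 in mTECs and 4.74 in cTECs. For Fbln1 (-0.62 ± 0.35) and Mfap5 (-2.94 ± 0.82, adjusted p = 0.0748) no difference was called, which does not show that they changed alike. The comparisons of KO with WT in cTECs and of WT mTECs with WT cTECs share the WT cTEC libraries, and the difference rests on all 8 libraries, among them 1 KO library per population.

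Without WT mTEC 2 the difference was called for 4 members, the calls of Tek, Des, Esam, Myh11 and S100a4 being lost (edgeR adjusted p = 0.0939, 0.0706, 0.0594, 0.0515 and 0.119). Without WT mTEC 1 those of Des, Fbln2, Myh11 and S100a4 were lost (adjusted p = 0.0917, 0.0636, 0.0961 and 0.112). Without WT cTEC 2 that of S100a4 was lost (adjusted p = 0.0537), and without WT cTEC 3 that of Esam (adjusted p = 0.0613). Rgs5, Vim and Fn1 were called under each of these omissions. With limma-voom 3 members were called, and Rgs5 was not among them (5.15, adjusted p = 0.0729).

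Other genes of the same lineages were taken from lists of 24 fibroblast, 16 mural and 26 endothelial genes. In WT mTECs against WT cTECs the called shares were 43.5% of the fibroblast, 25% of the mural and 25% of the endothelial genes tested. The share over all genes was 27% (13.2% higher and 13.9% lower), so the mural and endothelial shares in either direction were near it. By direction they were not alike, as all 6 endothelial calls were higher and the mural calls went both ways. Of 23 tested fibroblast genes 3 were higher and 7 lower. The largest changes among the called genes were in Igfbp6, an IGF binding protein (3.34 ± 0.45), Serpinf1, the anti-angiogenic factor PEDF (-2.99 ± 0.31), the gelatinase gene Mmp2 (-2.49 ± 0.17) and Gas1, a hedgehog co-receptor (-2.42 ± 0.31). Of 16 mural genes 1 was higher, the calponin Cnn1 (4.02 ± 0.96), and 3 were lower, Myl9 (-2.12 ± 0.23), Smtn (-1.47 ± 0.41) and Tagln (-0.65 ± 0.19), all of the smooth muscle contractile apparatus. Of 24 tested endothelial genes 6 were higher and 0 lower, led by Gpihbp1, which anchors lipoprotein lipase on capillaries (5.27 ± 1.30), Myct1 (4.86 ± 1.27), the tight junction gene Cldn5 (3.29 ± 0.91) and the phosphatase gene Ptprb (2.32 ± 0.68). All 26 summed to 321 CPM in KO mTEC, 226 and 142 CPM in WT mTEC, 67.2 CPM in KO cTEC and 75.5 to 84.1 CPM in WT cTEC. A ratio over 3 between WT mTEC 1 and 2 was found for 9 of them. Among these were Gpihbp1 (23.0 and 2.09 CPM), Cldn5 (9.75 and 1.02 CPM) and Ptprb (19.2 and 5.95 CPM). Myct1 had 3.39 and 1.18 CPM. Whether the calls of these other genes hold without single libraries was not tested.

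In KO cTECs the called shares of these lists were 39.1% for fibroblast, 18.8% for mural and 16.7% for endothelial genes. The share over all genes was 17.5% (5.1% higher and 12.4% lower), so the mural and endothelial shares in either direction were near it. By direction they were not alike, as all 3 mural calls were higher and the endothelial calls went both ways. Of the 23 other fibroblast genes 7 were higher and 2 lower. The surface protein gene Cd248 rose by 4.90 (175 counts in KO cTEC, 0 to 15 counts in WT cTEC) and Serpinf1 by 3.08 on the log2 scale. The homeobox gene Meox1 fell by 4.49 and Ly6a by 3.10. Of 16 other mural genes 3 were higher and 0 lower: the myosin kinase gene Mylk rose by 2.25, the Notch target Heyl by 1.38 and Myl9 by 0.99. Of 24 other endothelial genes the apelin receptor gene Aplnr rose by 3.43, and Prox1, the regulator of lymphatic endothelium, fell by 6.19, Sox7 by 3.12 and Ecscr by 2.92. Contractile genes of the mural list thus moved in both directions, with Mylk and Myl9 higher and Myh11 lower in the same library.

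Ligands of the receptors were measured too. Of 12 PDGF, VEGF and angiopoietin family genes 1 was higher and 4 lower in WT mTECs than in WT cTECs, a called share of 41.7% next to 27% of all genes. Pdgfb, the ligand of Pdgfrb, was higher by 1.63 ± 0.40, with 21.2 and 16.9 CPM in mTECs against 3.98 to 9.997 CPM in cTECs. The lower ones were Pdgfc (-2.41 ± 0.31), the Tek ligand Angpt1 (-1.65 ± 0.39), Vegfb (-0.82 ± 0.21) and Pdgfa (-0.66 ± 0.19). In KO cTEC Pdgfb had 0.457 CPM, against 3.98 to 9.997 CPM in WT cTEC, and fell by 3.78 on the log2 scale. Pdgfc, a ligand of Pdgfra, had 145 CPM in KO cTEC, against 24.7 to 49.5 CPM in WT cTEC, and rose by 2.03. Vegfa, with 60.3 CPM in KO mTEC, 75.1 and 66.7 CPM in WT mTEC, 93.9 CPM in KO cTEC and 64.5 to 110 CPM in WT cTEC, was not called in any comparison. For the difference of the KO effects the smallest adjusted p among the ligands was that of Pdgfb (edgeR adjusted p = 0.0675), which did not pass.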

How the data were processed

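Polyadenylated RNA was measured in 8 libraries. Per the labels' protocols, RNA of snap-frozen pellets went through low-input amplification of full-length cDNA, tagmentation and paired-end sequencing. The SMART-Seq chemistry named there does not mark strand. The authors' deposited values are raw counts per Entrez gene, made with featureCounts against mm10, per the submitters' processing notes. Versions, aligner and annotation: not given in the sources used here. Another deposited table with 8 columns that match no sample label was not used. Symbols came from the RefSeq gene table of GRCm38.p6, in which 25275 of 27179 identifiers (93.0%) were found.

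CPM were computed on library totals (11516780 to 19171953 counts). All genes with at least 1 CPM in at least 2 libraries (18163) were scaled by TMM and tested two-sided with the robust quasi-likelihood F test of edgeR 4.0.16 in R 4.3.3, with 1 mean per group and 4 residual degrees of freedom; calls required a Benjamini-Hochberg adjusted p under 0.05. SE is the absolute log2 fold change over the square root of F. KO groups hold 1 library each and were assumed to vary like WT. The series text calls replicates biological, but the labels tie none to an animal, so p-values reflect sample-to-sample spread, which may be technical. The labels give no batch. The scripts' tests were checked on simulated counts.

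Members and lists were chosen with earlier results of these data known. All 34 members were reported, those reaching 10 CPM in any library or called with values in every library; of other lists only called genes among the 4 largest changes, the ligands and label checks were named. Alternatives were RLE scaling, no filter, DESeq2 1.42.0, limma-voom (limma 3.58.1), leaving out each WT replicate, WT libraries only, a replicate block, TMM-scaled CPM and sums without the top gene. Intervals and limits cover counting error only, as reads carry no molecular identifiers.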

Additional observations from a re-analysis of the deposited data

Results flagged for a closer look

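Among WT cTEC libraries, 3 members had 1 library far from the other three by Dixon's criterion: Dpp4 was low in WT cTEC 4 (2.68 CPM), Cdh5 was high in WT cTEC 3 (0.763 CPM) and Sox17 was high in WT cTEC 3 (0.545 CPM). Chance gives such a flag in about 1 of 20 groups.

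The KO effect differed between the populations (mTEC minus cTEC, log2 scale, called by edgeR) for 9 members. The differences were 5.19 for Rgs5, 3.46 for Esam, 3.12 for Tek, 3.03 for Des, 3.02 for S100a4, 2.66 for Vim, 2.27 for Fn1, 2.00 for Myh11 and -2.99 for Fbln2. Each rests on 1 KO library per population.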

How the results depend on the processing

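Over the alternatives, 741 of 813 recomputed values of the 78 gene results kept their direction and side of the threshold, 44 lost and 24 gained a call, and 4 uncalled ones reversed. The reversals all came on leaving out WT mTEC 1, in WT mTECs against WT cTECs; over the omissions Cdh5 ranged from -0.045 to 3.48, Kdr from -2.02 to 3.07, Tie1 from -1.12 to 2.58 and Emcn from -1.21 to 3.04. Of 33 called results 16 lost their call under some alternative and 0 reversed; the cause was not tested.

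In WT mTECs against WT cTECs, members called ranged from 7 to 13 and genes from 603 to 6762 when a replicate was left out, against 11 and 4912; without WT mTEC 2 the counts were 7 and 603, without WT mTEC 1 1162 genes were called, and without WT cTEC 3, 3176 genes. The numbers 1 and 2 of the WT libraries were not taken to pair samples, since the labels do not say that they do. Deviations of same-numbered libraries correlated at -0.145 and -0.0207 across genes. With 2 WT mTEC libraries their deviations mirror each other, so these values cannot decide whether samples were paired. A replicate block over the numbers called 8 members and 2094 genes. In KO cTECs limma-voom called 8 members and 1726 genes, against 13 and 3179, and leaving out a replicate gave 11 to 13 members and 2256 to 4182 genes. In KO mTECs DESeq2 called 5 members and 139 genes, against 0 and 0, and leaving out a replicate gave 0 to 7 genes (7 without WT cTEC 1). For the difference of the KO effects limma-voom called 3 members and 104 genes and DESeq2 2050 genes, against 9 and 1236; leaving out a replicate gave 4 to 11 members and 649 to 1849 genes, with 649 without WT mTEC 1, and 4 members and 668 genes without WT mTEC 2.

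Log2 ratios of summed CPM depended on single genes. In WT mTECs against WT cTECs the fibroblast ratio was -0.27 without Sparc, against -0.84, the mural ratio 0.21 without Acta2, against -0.26, and the endothelial ratio 1.41 without Tek, against 0.95; the last came to 0.31 when WT mTEC 1 was left out and 1.39 when WT mTEC 2 was. In KO cTECs the mural ratio was -1.68 without Acta2, against -0.67, and the endothelial ratio -0.20 without Tek, against -0.86. In KO mTECs the fibroblast ratio was 0.75 without Sparc, against 0.96. At these depths low values rest on few reads, such as Sox17 with 2 counts in WT mTEC 2.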

Other observations

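Transcription factors and the cadherin of epithelial-mesenchymal transition were measured as a list of 5 genes. Cdh2, N-cadherin, had 17.5 CPM in KO mTEC, 15.96 and 16.98 CPM in WT mTEC, 0.588 CPM in KO cTEC and 26.6 to 35.7 CPM in WT cTEC; it fell in KO cTEC by 5.67 and its KO effects differed by 5.79 between the populations (log2, edgeR adjusted p = 0.000159 and 0.000584). Zeb1 had 7.64 CPM in KO mTEC, 13.7 and 11.2 CPM in WT mTEC, 1.50 CPM in KO cTEC and 8.41 to 11.7 CPM in WT cTEC, and fell by 2.68 in KO cTEC. In WT mTECs Snai2 was lower than in WT cTECs, at 73.1 and 66.6 CPM against 104 to 161 CPM.

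The skeletal muscle list was highest in KO mTEC. Myog, a transcription factor of myogenesis, had 22.9 CPM in KO mTEC, 18.0 and 16.1 CPM in WT mTEC, 0 counts in KO cTEC and 7.70 to 16.5 CPM in WT cTEC. The titin gene Ttn had 142 CPM in KO mTEC, 126 and 139 CPM in WT mTEC, 6.79 CPM in KO cTEC and 36.6 to 68.5 CPM in WT cTEC.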
